A study of Mus musculus with 34 samples.

Results

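Growth hormone reaches the male mouse liver in pulses, and each pulse activates the transcription factor STAT5 in hepatocytes. A set of hepatocyte genes depends on those pulses and is expressed mainly in males, while another set is held down by them and is expressed mainly in females. The male set includes enzymes of steroid and fatty acid metabolism, transporters and secreted proteins, and it is known to be lost when the pulses are removed or when STAT5 is deleted from hepatocytes.

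The 7 genes described here are male-biased liver genes of that kind, namely Hsd3b5, Slco1a1, Cyp4a12a, Cyp4a12b, Elovl3, Serpina1e and Selenbp2. They were looked up by symbol, with 1 row per gene ID, and are 7 of the 14876 genes counted in either table (13377 were counted in both). All 7 were present in both tables and passed the filter on low counts. They were chosen by their CPM and fold changes in earlier results of these data, those of the Bcl2TG experiment in particular. Values of that experiment are therefore given as a description with no test, and tests are given for the S100a8 experiment, for which results of the same libraries were also known when the genes were proposed. The growth hormone dependence is background knowledge, since no hormone was given or measured.

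Whole livers of male mice were profiled by polyA RNA-seq in 34 libraries of 8 groups, in 2 experiments with a separate count table each. The first compared HFD-fed Bcl2TG (n = 5), HFD-fed WT (n = 5), chow-fed Bcl2TG (n = 3) and chow-fed WT (n = 3) mice. The Bcl2TG mice carry a Cre-inducible Bcl2 transgene switched on in adipocytes by Adipoq-Cre, so the liver cells themselves are not the target. The second compared HFD-fed S100a8f/fCx3cr1Cre (n = 4), HFD-fed S100a8f/f (n = 5), chow-fed S100a8f/fCx3cr1Cre (n = 5) and chow-fed S100a8f/f (n = 4) mice, in which Cx3cr1-Cre deletes the floxed S100a8 gene in macrophages and S100a8f/f littermates carry the floxed alleles without Cre. Feeding began at 8 weeks of age with a diet of 60% of calories from fat (HFD) or 10% (chow). It lasted 3 months in the first experiment, and is given as both 3 and 4 months for the second. Mice are named here by the numbers in their labels, which do not state cages or litters, and each library was taken as 1 mouse.

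The tables held between 18628257 and 52395073 counts per library, and values are in CPM, that is counts scaled to library size, with a correction for library composition within each table. A value after ± is the SD over the stated n. The 9 hepatocyte markers checked were all detected, with a summed level of 86950 to 154200 CPM over all 34 livers. Bcl2 in whole liver did not separate the genotypes, at 8.98 to 14.9 CPM in HFD-fed Bcl2TG livers, 2.72 to 21.3 CPM in HFD-fed WT livers, 4.17 to 8.44 CPM in chow-fed Bcl2TG livers and 7.75 to 11.3 CPM in chow-fed WT livers. The highest value, 21.3 CPM, was in HFD-fed WT mouse 1, against 2.72 to 2.94 CPM in the other 4 of its group, so a log2 difference of the 7 genes that moves by more than 1.5-fold when that library is left out is also given without it. S100a8 was not analysed in the second experiment, so its deletion was not checked here. In whole tissue, fewer cells of a type and less RNA per cell cannot be told apart.

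Several of the genes have close copies, and the sequences that separate the copies are shown because they decide which gene a read is counted for. Cyp4a12a (ENSMUSG00000066071; GRCm38 chr4:115299046-115332815, plus strand) and Cyp4a12b (ENSMUSG00000078597; chr4:115411624-115439034, plus strand) lie side by side and encode omega-hydroxylases of fatty acids such as arachidonic acid. Their coding sequences differed at 23 of 1524 bases (98.49% identity). The 60 coding bases from position 624 to 683, counted from 1 at the start codon, hold 4 of those differences, in capitals:
Cyp4a12a: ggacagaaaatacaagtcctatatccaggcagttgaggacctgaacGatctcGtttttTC
Cyp4a12b: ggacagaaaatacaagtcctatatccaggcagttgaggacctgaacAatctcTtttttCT
Selenbp2 (ENSMUSG00000068877; chr3:94693556-94704413, plus strand) encodes a selenium-binding protein and differed from its close copy Selenbp1 at 18 of 1416 coding bases (98.73% identity). Coding bases 390 to 449 hold 4 of them:
Selenbp2: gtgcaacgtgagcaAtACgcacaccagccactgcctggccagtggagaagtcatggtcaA
Selenbp1: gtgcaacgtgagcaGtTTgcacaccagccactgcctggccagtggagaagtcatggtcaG
Serpina1e (ENSMUSG00000072849; chr12:103946931-103958975, minus strand) is 1 of 5 clustered mouse genes for alpha-1-antitrypsin, a protease inhibitor secreted by hepatocytes, and was 96.29% to 96.53% identical in coding sequence to Serpina1a, Serpina1b, Serpina1c and Serpina1d. Its coding bases 1101 to 1160 differed from the matching bases of Serpina1a at 12 positions:
Serpina1e: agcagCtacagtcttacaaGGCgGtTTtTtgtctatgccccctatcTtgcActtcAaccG
Serpina1a: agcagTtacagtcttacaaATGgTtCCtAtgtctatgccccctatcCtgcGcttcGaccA
Reads that cover no differing base cannot be assigned to 1 copy, and only coding sequences were compared here. Levels of Cyp4a12a, Cyp4a12b, Selenbp2 and Serpina1e are therefore uncertain to the extent that the counting split them. The other 3 were more distinct. Hsd3b5 (ENSMUSG00000038092; chr3:98618634-98630252, minus strand), a 3-ketosteroid reductase of the male liver, shared 79.89% of its coding bases with Hsd3b2. Slco1a1 (ENSMUSG00000041698; chr6:141907282-141946962, minus strand), which takes bile acids, steroid conjugates and other organic anions into hepatocytes, shared 86.67% with Slco1a4. Elovl3 (ENSMUSG00000038754; chr19:46131897-46135694, plus strand), an elongase of long-chain fatty acids, shared 57.74% with Elovl6.

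Promoter sequence from RefSeq (GRCm38.p6) was matched for 4 of the 7 genes and is shown because these genes varied together across the livers. Each run covers the 230 bases from 250 to 21 bases before the annotated RefSeq start, on the gene's strand, and matches to 7 motifs searched on both strands are in capitals. The Hsd3b5 window does not adjoin the gene span given above, and the Serpina1e window lies inside its gene span. The coordinates are chr3:98645555-98645784 for Hsd3b5, whose RefSeq start lies upstream of the gene end given above, chr6:141946983-141947212 for Slco1a1, chr3:94693323-94693552 for Selenbp2 and chr12:103956918-103957147 for Serpina1e:
Hsd3b5: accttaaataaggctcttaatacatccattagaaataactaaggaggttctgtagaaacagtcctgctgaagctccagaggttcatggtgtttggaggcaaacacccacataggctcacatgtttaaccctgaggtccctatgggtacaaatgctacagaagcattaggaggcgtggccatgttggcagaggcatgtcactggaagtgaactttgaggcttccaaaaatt
Slco1a1: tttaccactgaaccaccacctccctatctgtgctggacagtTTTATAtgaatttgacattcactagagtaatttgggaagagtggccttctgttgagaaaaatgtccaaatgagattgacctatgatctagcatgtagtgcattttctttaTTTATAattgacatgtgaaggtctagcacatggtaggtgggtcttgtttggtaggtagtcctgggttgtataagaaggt
Selenbp2: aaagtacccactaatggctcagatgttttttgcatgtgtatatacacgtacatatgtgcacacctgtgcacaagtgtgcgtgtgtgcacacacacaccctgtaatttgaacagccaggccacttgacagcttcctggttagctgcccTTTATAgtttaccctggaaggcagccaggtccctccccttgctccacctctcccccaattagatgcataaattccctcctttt
Serpina1e: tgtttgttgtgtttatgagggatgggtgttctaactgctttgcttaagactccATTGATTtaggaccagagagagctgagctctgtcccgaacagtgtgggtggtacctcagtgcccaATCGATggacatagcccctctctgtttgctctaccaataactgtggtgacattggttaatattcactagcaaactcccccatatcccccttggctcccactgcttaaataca
The letters searched were TTCNNNGAA for STAT5 (found in 6.48% of all 32851 promoter windows of this length), ATTGATT for HNF6 (2.5%), ATCGAT for CUX2 (0.682%), CAAAGTCCA for HNF4 (0.344%), CACGTG for the E-box of clock factors (5.35%), TTATGTAA for the D-box (0.77%) and TATAAA for the TATA box (11.8%). The Serpina1e window held 1 HNF6 match at -197 to -191 and 1 CUX2 match at -132 to -127 from the start, which do not overlap. TATA letters, read on the reverse strand, lay at -209 to -204 and -99 to -94 in the Slco1a1 window and at -103 to -98 in the Selenbp2 window. None of the 4 windows held the STAT5 letters, which says only that those letters are not in these windows.

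On chow, per kilobase of exon, Serpina1e was by far the most abundant of the 7 in both control groups, with a mean of 4213 CPM per kilobase in WT and 4139 in S100a8f/f livers. In WT the next were Elovl3 (361.5), Selenbp2 (349.6), Hsd3b5 (175.8), Cyp4a12a (107.9), Slco1a1 (74.98) and Cyp4a12b (34.57), all in CPM per kilobase. In S100a8f/f livers the order was Selenbp2 (187.3), Cyp4a12a (115.9), Hsd3b5 (115.6), Slco1a1 (48.65), Cyp4a12b (46.4) and Elovl3 (35.23 CPM per kilobase), so that Elovl3 moved from the second place to the last. The tables were scaled separately, and levels set across them are given as they stand.

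The first question was what a high-fat diet does to these genes in the liver. In the Bcl2TG experiment all 7 were lower in HFD-fed WT than in chow-fed WT livers, most of all Hsd3b5, Serpina1e and Cyp4a12b and least Slco1a1, Cyp4a12a and Elovl3. In the S100a8 experiment, where the diet was tested, 6 of the 7 fell strongly in both genotypes and Elovl3 was not called.

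**Figure D1:**
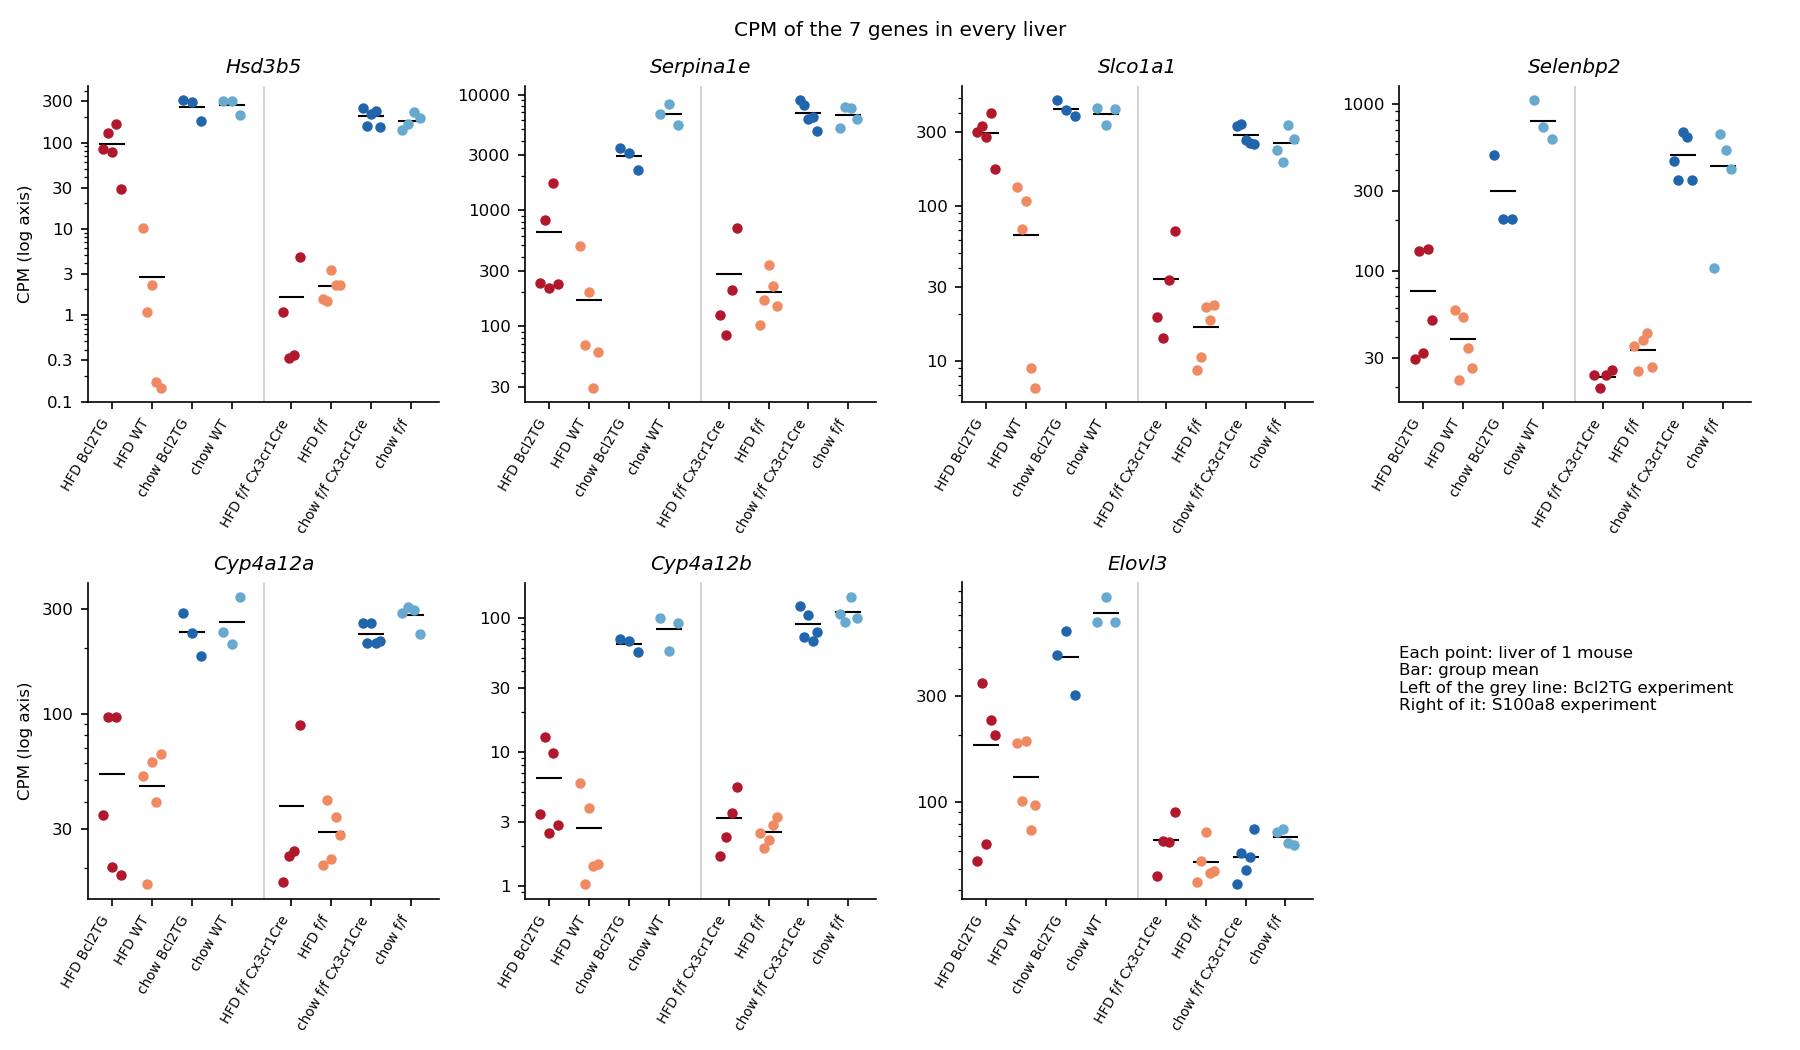
CPM on a log axis of each of the 7 genes in every liver, with a bar at the group mean; the Bcl2TG experiment is left of the grey line and the S100a8 experiment right of it (f/f, S100a8f/f; f/f Cx3cr1Cre, S100a8f/fCx3cr1Cre). For Hsd3b5 the 5 HFD-fed Bcl2TG livers lie between 29.3 and 165.9 CPM, all above the 5 HFD-fed WT livers at 0.144 to 10.2 CPM, and Elovl3 lies below 100 CPM in all 4 groups of the S100a8 experiment, with 90.3 CPM as the highest liver.

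Hsd3b5 showed the widest range. In HFD-fed WT mice 1 to 5 it was at 10.2, 1.10, 2.26, 0.171 and 0.144 CPM (4 to 431 counts per library), and in chow-fed WT mice 1 to 3 it was at 303.5, 303.0 and 210.7 CPM. Every HFD liver was below every chow liver, by a log2 fold change of -6.55 (SE 0.86) that became -8.03 without HFD-fed WT mouse 1. In HFD-fed S100a8f/f mice 1 to 5 it was at 1.53, 1.48, 3.36, 2.26 and 2.26 CPM, against 137.9, 163.1, 225.3 and 190.1 CPM in chow-fed S100a8f/f mice 1, 2, 4 and 5, and it fell by 6.36 on the log2 scale (SE 0.47, edgeR quasi-likelihood test, adjusted p = 1.10e-07). HFD-fed S100a8f/fCx3cr1Cre mice 1, 3, 4 and 5 had 1.09, 0.318, 0.344 and 4.70 CPM, against 248.8, 155.3, 215.9, 231.7 and 152.6 CPM in chow-fed mice of that genotype, a log2 fold change of -6.97 (SE 0.53, adjusted p = 2.91e-08) that became -8.42 without HFD-fed mouse 5. The 2 diets did not overlap in any of these 3 genotypes.

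Serpina1e, the most abundant, lost the most CPM. HFD-fed WT mice had 496.4, 68.6, 198.8, 29.5 and 59.9 CPM and chow-fed WT mice had 6741, 8201 and 5495 CPM, a log2 fold change of -5.32 (SE 0.84) that became -6.24 without HFD-fed WT mouse 1. The lowest chow liver was thus more than 10 times the highest HFD liver. In the S100a8 experiment it averaged 196.9 ± 89.9 CPM in HFD-fed and 6693 ± 1243 CPM in chow-fed S100a8f/f livers (n = 5 and 4), and it fell by 5.09 (SE 0.50, adjusted p = 9.80e-07, edgeR). In S100a8f/fCx3cr1Cre livers it averaged 281.0 ± 287.5 CPM on HFD and 6889 ± 1599 CPM on chow (n = 4 and 5), a log2 fold change of -4.62 (adjusted p = 4.41e-06), or -5.63 without HFD-fed mouse 5.

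Cyp4a12b and Cyp4a12a were both lower on HFD, the first by more. Cyp4a12b was at 5.84, 1.03, 3.85, 1.41 and 1.48 CPM in HFD-fed WT mice and at 100.4, 57.0 and 91.1 CPM in chow-fed WT mice (log2 fold change -4.87, SE 0.56). Cyp4a12a was at 52.3, 16.9, 60.5, 40.0 and 66.1 CPM in HFD-fed WT mice and at 235.3, 208.3 and 340.5 CPM in chow-fed WT mice (-2.47, SE 0.50). Neither gene overlapped between the diets. In S100a8f/f livers Cyp4a12b averaged 2.55 ± 0.527 CPM on HFD and 111.1 ± 22.4 CPM on chow (n = 5 and 4) and had the smallest p of the 7 genes, with a log2 fold change of -5.44 (SE 0.28, adjusted p = 3.81e-10, edgeR). Cyp4a12a averaged 29.1 ± 8.36 CPM on HFD and 280.8 ± 33.3 CPM on chow in the same mice, a log2 fold change of -3.27 (SE 0.35, adjusted p = 2.62e-06, edgeR). In S100a8f/fCx3cr1Cre livers the log2 fold changes were -4.78 for Cyp4a12b (adjusted p = 1.56e-09) and -2.60 for Cyp4a12a (adjusted p = 3.70e-05, or -3.44 without HFD-fed mouse 5), both in edgeR, and neither gene overlapped between the diets.

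Slco1a1, the organic anion transporter, was at 132.4, 71.6, 107.6, 9.04 and 6.69 CPM in HFD-fed WT mice and at 431.7, 334.1 and 421.0 CPM in chow-fed WT mice, a log2 fold change of -2.59 (SE 0.64). WT mice 4 and 5 on HFD lay more than 7 times below the other 3. In S100a8f/f livers it averaged 16.6 ± 6.62 CPM on HFD and 256.7 ± 60.2 CPM on chow (n = 5 and 4), a log2 fold change of -3.95 (SE 0.37, adjusted p = 5.95e-07, edgeR). In S100a8f/fCx3cr1Cre livers it fell by 3.08 (SE 0.38, adjusted p = 1.05e-05, edgeR), with 14.2 to 68.9 CPM on HFD and 250.2 to 336.5 CPM on chow, and the log2 fold change was -3.69 without HFD-fed mouse 5.

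Selenbp2 was at 58.1, 22.1, 53.1, 34.6 and 26.3 CPM in HFD-fed WT mice and at 1048, 721.8 and 611.3 CPM in chow-fed WT mice (log2 fold change -4.35, SE 0.51). It fell by 3.66 in S100a8f/f livers (SE 0.36, adjusted p = 9.06e-07, edgeR), with 25.1 to 42.3 CPM on HFD and 103.9 to 662.6 CPM on chow. The low chow value of 103.9 CPM came from S100a8f/f mouse 1 alone, the other 3 being at 407.9 CPM or more. In S100a8f/fCx3cr1Cre livers it fell by 4.41 (SE 0.40, adjusted p = 2.57e-07, edgeR).

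Elovl3 was the exception. HFD-fed WT mice had 184.0, 100.8, 189.5, 75.0 and 97.2 CPM and chow-fed WT mice had 649.6, 843.0 and 649.2 CPM, with no overlap and a log2 fold change of -2.46 (SE 0.47). In S100a8f/f livers it was at 43.7 to 73.2 CPM on HFD and at 64.2 to 75.6 CPM on chow, a log2 difference of -0.38 (95% confidence interval -0.73 to -0.03, adjusted p = 0.124, edgeR). That difference became -0.51 with adjusted p = 0.0382 when HFD-fed S100a8f/f mouse 3 was left out. In S100a8f/fCx3cr1Cre livers the groups overlapped and the log2 difference was 0.25 (interval -0.10 to 0.60, adjusted p = 0.309, edgeR). On chow its mean was 713.9 ± 111.8 CPM in WT livers of the first experiment and 69.6 ± 5.76 CPM in S100a8f/f livers of the second (n = 3 and 4), while no other member differed between those control groups by as much.

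Counted together, all 7 genes were lower without overlap in HFD-fed WT livers, where 8.55% of all 14436 genes were; this is a description, since those values had named several of the genes. By the edgeR test, 6 of the 7 fell and 0 rose in S100a8f/f livers (7 of 7 had an unadjusted p under 0.05), where 13.0% of all 13817 genes fell. In S100a8f/fCx3cr1Cre livers 6 of the 7 fell and 0 rose (6 of 7 at an unadjusted p under 0.05), where 12.8% of all genes fell. DESeq2 and limma-voom also called 6 of the 7 in each genotype. Results of these libraries were also known when the genes were proposed, so these counts are no independent test. The median log2 fold change of the 7 was -3.95 in S100a8f/f and -4.41 in S100a8f/fCx3cr1Cre livers, beside -0.01 over all genes in both.

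The next question was whether the diet had the same effect when adipocytes carried the Bcl2 transgene. In HFD-fed Bcl2TG livers the 7 genes were again lower on average than in chow-fed Bcl2TG livers, by fitted differences of -0.52 (Slco1a1) to -3.34 (Cyp4a12b) that were each smaller in size than in WT mice. The groups did not overlap for 5 of the 7, where 8.22% of all genes were lower without overlap. Slco1a1 and Elovl3 overlapped between the diets.

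For Hsd3b5 the 5 HFD-fed Bcl2TG livers (mice 1, 2, 3, 5 and 6) had 83.3, 127.9, 77.3, 165.9 and 29.3 CPM, against 10.2, 1.10, 2.26, 0.171 and 0.144 CPM in HFD-fed WT livers. Every transgenic liver was above every WT liver on the same diet, by a log2 fold change of 5.06 (SE 0.78), which is 6.54 without HFD-fed WT mouse 1. Chow-fed Bcl2TG livers had 307.7, 293.3 and 179.0 CPM and overlapped with chow-fed WT livers at 303.5, 303.0 and 210.7 CPM (-0.07, SE 0.83). The HFD effect within Bcl2TG mice was -1.43 (SE 0.73), with all 5 HFD livers below the lowest chow liver.

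Slco1a1 showed the same order. It was at 299.3, 331.2, 280.6, 401.3 and 174.6 CPM in HFD-fed Bcl2TG mice, against 132.4, 71.6, 107.6, 9.04 and 6.69 CPM in HFD-fed WT mice, and the groups did not overlap (log2 fold change 2.18, SE 0.58, or 2.60 without HFD-fed WT mouse 1). Chow-fed Bcl2TG mice had 481.2, 417.4 and 380.7 CPM, so mouse 5 on HFD lay inside the range of the chow-fed transgenic livers. These 2 genes were the only members without overlap between HFD-fed Bcl2TG and HFD-fed WT livers, where 2.76% of all genes were higher without overlap.

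The other 5 were higher on average in HFD-fed Bcl2TG livers but overlapped with WT. Serpina1e was at 236.2, 824.5, 212.8, 1741 and 233.7 CPM in HFD-fed Bcl2TG mice, against 496.4, 68.6, 198.8, 29.5 and 59.9 CPM in HFD-fed WT mice (log2 fold change 1.93, SE 0.70, or 2.85 without HFD-fed WT mouse 1 and 1.14 without HFD-fed Bcl2TG mouse 5). Even its highest HFD-fed Bcl2TG liver, at 1741 CPM, was below the lowest chow-fed Bcl2TG liver, at 2244 CPM. Cyp4a12b was at 2.50 to 13.1 CPM in HFD-fed Bcl2TG livers, against 1.03 to 5.84 CPM in HFD-fed WT livers (1.17, SE 0.49), and Selenbp2 at 29.5 to 133.9 CPM, against 22.1 to 58.1 CPM (0.95, SE 0.43). Elovl3 (54.1 to 345.5 CPM in HFD-fed Bcl2TG livers, against 75.0 to 189.5 CPM in HFD-fed WT livers) and Cyp4a12a (18.6 to 97.0 CPM, against 16.9 to 66.1 CPM) differed by 0.48 (SE 0.42) and 0.18 (SE 0.44), about the size of their errors. The Elovl3 difference was -0.22 in limma-voom and that of Cyp4a12a also fell below 0 under some settings (lowest -0.17), so neither has a set direction.

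**Figure D2:**
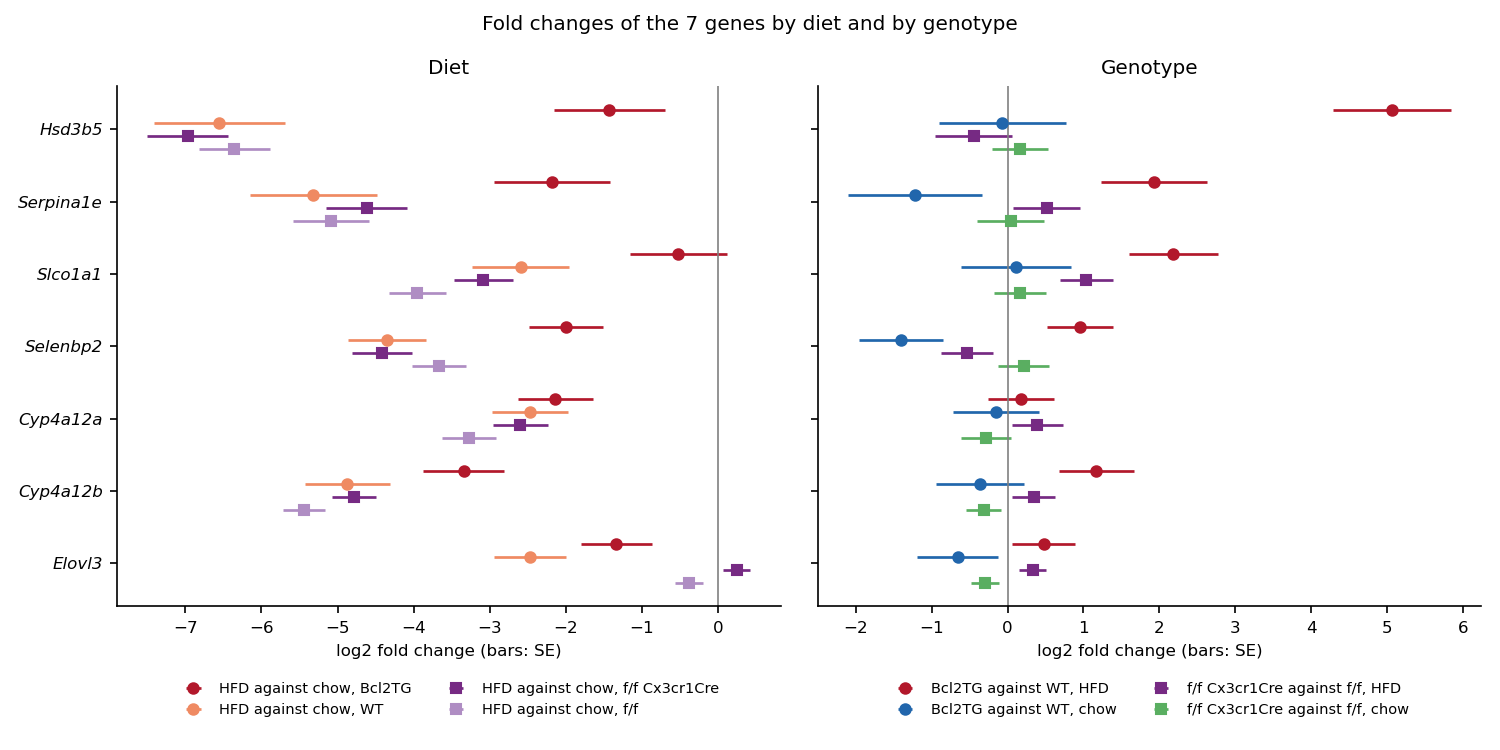
Log2 fold changes of the 7 genes by diet (left) and by genotype (right), each point a fitted difference and each bar its standard error. The diet effect on Hsd3b5 is -1.43 in Bcl2TG livers and below -6 in the other 3 genotypes, and in the genotype panel Hsd3b5 in HFD-fed Bcl2TG against WT livers, at 5.06, stands apart from every other point.

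The difference between the diet effects of Bcl2TG and WT mice was 5.13 (SE 1.14) for Hsd3b5, 3.14 for Serpina1e, 2.36 for Selenbp2, 2.07 for Slco1a1, 1.53 for Cyp4a12b, 1.13 for Elovl3 and 0.33 for Cyp4a12a on the log2 scale, with a median of 2.07 beside 0.02 over all genes. Without HFD-fed WT mouse 1 it was 6.60 for Hsd3b5 and 4.05 for Serpina1e, without HFD-fed Bcl2TG mouse 5 it was 2.36 for Serpina1e, and without HFD-fed Bcl2TG mouse 2 that of Cyp4a12a turned to -0.0237. For 3 of the genes the chow livers of the genotypes also lay apart. Selenbp2 was at 492.9, 205.3 and 202.7 CPM in chow-fed Bcl2TG mice, against 1048, 721.8 and 611.3 CPM in chow-fed WT mice (-1.40, SE 0.56). Serpina1e was at 3440, 3123 and 2244 CPM in chow-fed Bcl2TG mice, against 6741, 8201 and 5495 CPM in chow-fed WT mice (-1.21, SE 0.88). Elovl3 was at 462.0, 593.4 and 303.2 CPM in chow-fed Bcl2TG mice, against 649.6, 843.0 and 649.2 CPM in chow-fed WT mice (-0.66, SE 0.54). These 3 were lower without overlap, where 6.89% of all genes were, and the other 4 overlapped with differences between -0.36 and 0.11.

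Loss of S100a8 in Cx3cr1-expressing cells was tested in the same way. None of the 7 genes was called between HFD-fed S100a8f/fCx3cr1Cre and HFD-fed S100a8f/f livers by edgeR (1 of 7 at an unadjusted p under 0.05; 0 in DESeq2 and 0 in limma-voom), where 0.883% of all genes were called. Slco1a1 came nearest, at 19.3, 14.2, 33.5 and 68.9 CPM in HFD-fed S100a8f/fCx3cr1Cre mice 1, 3, 4 and 5, against 8.69, 10.5, 22.4, 18.3 and 22.9 CPM in HFD-fed S100a8f/f mice. Its log2 difference was 1.04 (interval 0.35 to 1.72, adjusted p = 0.311, edgeR, range 0.100 to 0.853 over the alternatives) and it shrank to 0.43 without S100a8f/fCx3cr1Cre mouse 5. Hsd3b5 differed by -0.45 (interval -1.44 to 0.55, adjusted p = 0.931, edgeR, range 0.0226 to 0.9995). Without S100a8f/fCx3cr1Cre mouse 5 that difference was -1.90 with adjusted p = 0.0226, the 3 remaining livers being at 0.318 to 1.09 CPM, against 1.48 to 3.36 CPM in HFD-fed S100a8f/f livers. The other 5 lay between -0.54 for Selenbp2 (interval -1.21 to 0.14) and 0.51 for Serpina1e (interval -0.35 to 1.37).

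The HFD-fed S100a8f/fCx3cr1Cre livers also had higher levels of markers of other tissues. Their summed smooth muscle markers (3 of 4 measured: Acta2, Myh11, Cnn1) were at 140.8 to 167.5 CPM, against 6.88 to 35.2 CPM in HFD-fed S100a8f/f livers, and their summed adipocyte markers (3 of 5 measured: Adipoq, Plin1, Cfd) were at 70.2 to 149.4 CPM, against 7.39 to 29.8 CPM. Adipoq itself was at 6.45 to 7.88 CPM in HFD-fed S100a8f/fCx3cr1Cre livers, against 0.517 to 1.73 CPM in HFD-fed S100a8f/f livers. The part of these tissues in the differences above was not tested.

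On chow none of the 7 genes was called between S100a8f/fCx3cr1Cre and S100a8f/f livers by edgeR (0 of 7 at an unadjusted p under 0.05, and 0 in DESeq2 and limma-voom), where 0.0% of all genes were called. The differences ran from -0.31 for Cyp4a12b (interval -0.76 to 0.13) to 0.21 for Selenbp2 (interval -0.44 to 0.87). A difference of the diet effect by genotype was called for 0 of the 7 by edgeR (1 of 7 at an unadjusted p under 0.05; 0 in DESeq2 and limma-voom), where 0.13% of all genes were called. Elovl3 had the smallest p of that comparison, with a difference of 0.63 (interval 0.13 to 1.12, adjusted p = 0.680, edgeR).

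Within some groups, single livers stood above or below their group mean for all or nearly all of the 7 genes. In HFD-fed Bcl2TG livers, mice 2 and 5 were above the group mean for 7 of the 7 genes, by 0.96 and 1.07 on average on the log2 scale, and mouse 3 was above it for 0 of 7 (-0.76). In HFD-fed WT livers, mice 1 and 3 were above it for 7 of 7 (1.48 and 0.88) and mouse 4 for 0 of 7 (-1.06). In HFD-fed S100a8f/fCx3cr1Cre livers mouse 5 was the highest of its group for 7 of 7 (1.20), and among chow-fed Bcl2TG livers mouse 3 was the lowest for 7 of 7 (-0.36). HFD-fed S100a8f/f livers were closer together, with averages between -0.38 and 0.32 and 1 to 6 of 7 genes above the mean. Chow-fed WT mice 1 to 3 were above their mean for 5, 3 and 3 of the 7, and chow-fed S100a8f/f mice 1, 2, 4 and 5 for 2, 4, 6 and 3.

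**Figure D3:**
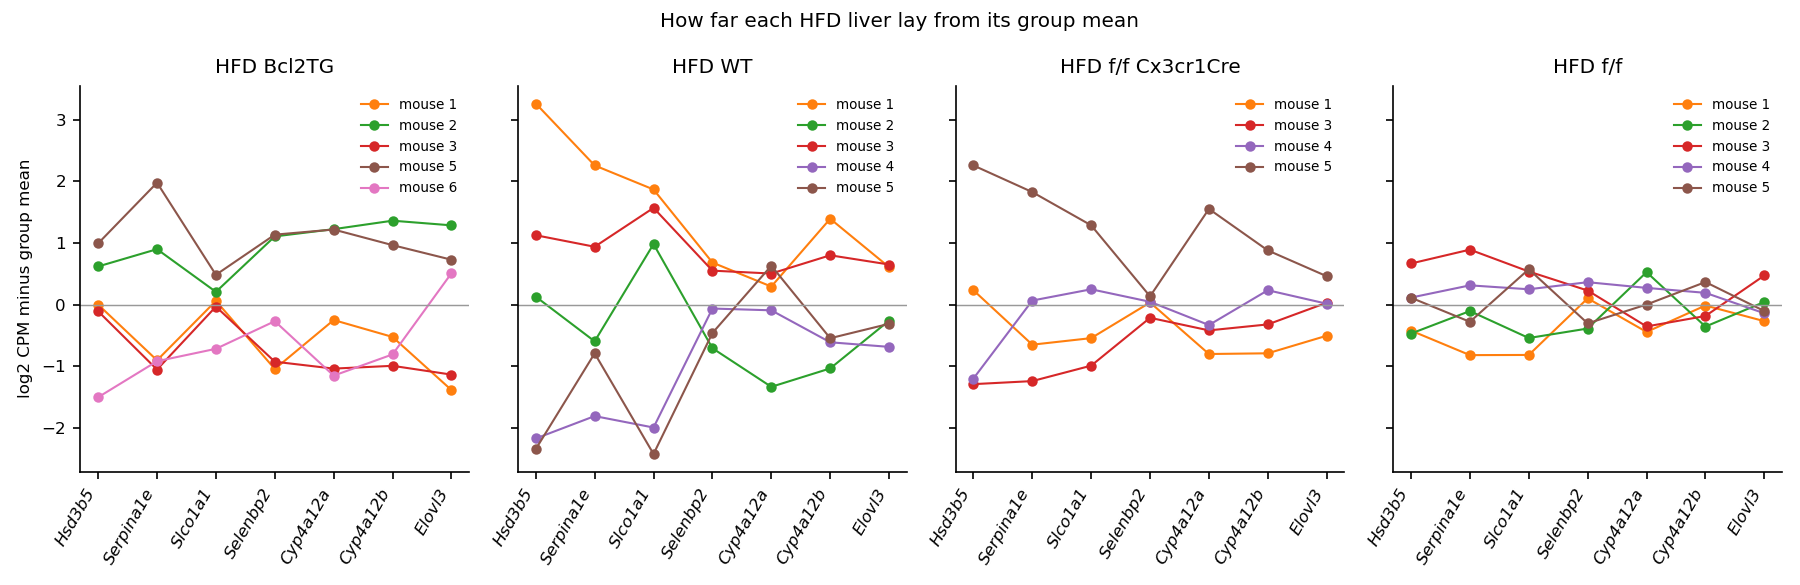
Log2 CPM of each of the 7 genes in each HFD-fed liver minus its group mean, with 1 line per mouse. In HFD-fed WT livers mouse 1 lies above 0 and mouse 4 below 0 for all 7 genes, and in HFD-fed S100a8f/fCx3cr1Cre livers mouse 5 lies above 0 for all 7.

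After group means were removed, the 21 pairs of the 7 genes had a median Pearson correlation of 0.70 (0.05 to 0.92, 21 of 21 above 0) over the 16 livers of the Bcl2TG experiment and of 0.47 (-0.12 to 0.85, 20 of 21 above 0) over the 18 livers of the S100a8 experiment. These are descriptions, since the genes share libraries and the Cyp4a12 pair shares sequence, and the same value over all pairs of genes was not computed. Hsd3b5 and Slco1a1 were the closest pair in the first experiment (0.92), and Slco1a1 and Serpina1e in the second (0.85), where Selenbp2 had 0.03 to 0.10 with Cyp4a12a, Cyp4a12b and Slco1a1. Set against the mean of the other 6 over all livers of a table, with group differences left in, each gene had a correlation of 0.74 to 0.99 in the Bcl2TG experiment. The genes were chosen by such differences, so high values there are a description only. In the S100a8 experiment Elovl3 stood apart with 0.18, where the other 6 had 0.89 to 0.98.

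Elovl3 is known for a strong daily rhythm in mouse liver, so clock genes are given beside it. The clock output gene Dbp averaged 67.1 CPM in HFD-fed Bcl2TG, 30.4 CPM in HFD-fed WT, 6.55 CPM in chow-fed Bcl2TG and 0.850 CPM in chow-fed WT livers, while in the S100a8 experiment its 4 group means were between 100.3 and 124.5 CPM. Bmal1, a core activator of the clock, ran the other way, at 8.96, 10.8, 24.3 and 34.7 CPM in those 4 groups of the first experiment in the same order, and between 0.765 and 2.54 CPM in the second. Within the Bcl2TG experiment 9 of 18 clock genes were called by diet in WT livers (4 rose and 5 fell, edgeR), including Dbp (5.20, adjusted p = 5.48e-05), Cry1 (-1.43, adjusted p = 5.12e-05) and Nfil3 (-1.46, adjusted p = 6.20e-05). Over all genes 8.4% rose and 6.98% fell by diet in WT livers. In S100a8f/f livers 4 of 17 clock genes were called, all lower (2 without chow-fed S100a8f/f mouse 5), and Dbp was not among them. Over all genes 14.5% rose and 13.0% fell by diet in S100a8f/f livers. Clock gene levels and diet thus cannot be told apart in the Bcl2TG experiment. By the means above, Dbp was also higher and Bmal1 lower in Bcl2TG than in WT livers on each diet. The genotype differences of the 7 genes in that experiment, Elovl3 included, are therefore not separated from clock gene levels either. The same holds for the differences between the diet effects of Bcl2TG and WT mice. The part of clock genes in the values of the 7 genes was not tested.

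**Figure D4:**
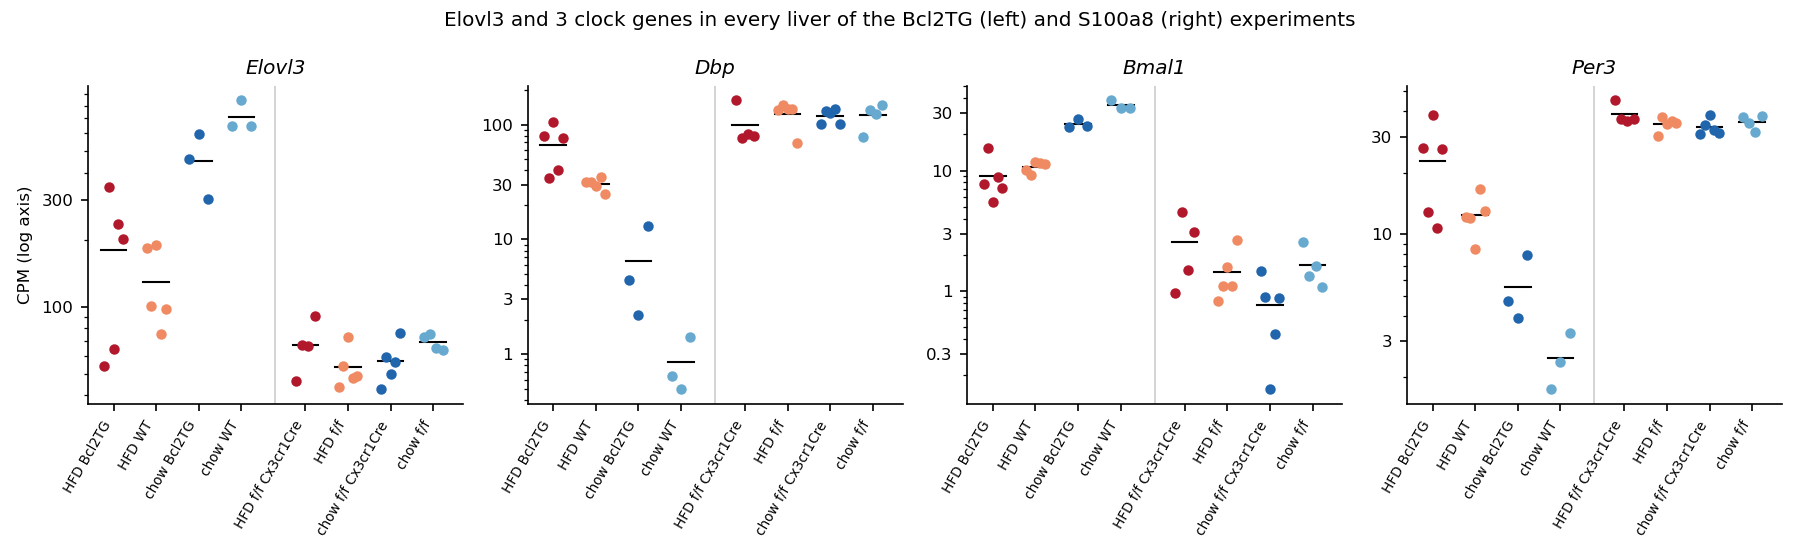
CPM on a log axis of Elovl3, Dbp, Bmal1 and Per3 in every liver, with a bar at the group mean; the Bcl2TG experiment is left of the grey line and the S100a8 experiment right of it. Elovl3 and Bmal1 are high and Dbp and Per3 low in chow-fed WT livers (means of 713.9, 34.7, 0.850 and 2.48 CPM), and the 4 groups of the S100a8 experiment lie close together for Dbp and Per3.

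Other male-biased liver genes, taken from a list that leaves out the 7 genes and the Mup family, went the same way with smaller fold changes. This list and the other gene lists were also chosen with earlier results of these libraries known, so their calls are no independent test. In HFD-fed WT livers 11 of 13 fell and 0 rose (edgeR; 6.98% of all genes fell), with a median log2 fold change of -1.86 beside -0.02 over all genes. They include Cyp7b1, the oxysterol 7-alpha-hydroxylase (-2.58, adjusted p = 3.92e-05), the peroxisomal coenzyme A hydrolase Nudt7 (-1.55, adjusted p = 8.97e-05), the complement regulator Susd4 (-1.92) and the glucuronosyltransferase Ugt2b38 (-1.86). Of the same list 11 of 13 fell in S100a8f/f livers (median -1.53), led by Egfr, the epidermal growth factor receptor (-2.91, adjusted p = 4.01e-07), and in S100a8f/fCx3cr1Cre livers 11 of 13 fell (median -1.31). In Bcl2TG livers 3 of 13 fell (median -0.83; 1.26% of all genes fell by edgeR), and between 0 and 5 did when 1 library was left out. On HFD, 4 of 13 were higher in Bcl2TG than in WT livers and 0 were lower (2.42% of all genes were higher), namely Susd4 (1.17, adjusted p = 0.00469), Nudt7 (0.81), Cyp7b1 (1.14) and Cyp2u1 (0.93).

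The major urinary protein genes, male-biased pheromone carriers in near-identical copies whose single values are uncertain, followed with larger changes. In HFD-fed WT livers 19 of 21 fell (median -2.56), as did 18 of 19 in S100a8f/fCx3cr1Cre livers (median -1.91) and 19 of 19 in S100a8f/f livers (median -3.57). Over all genes 6.98% fell in WT, 12.8% in S100a8f/fCx3cr1Cre and 13.0% in S100a8f/f livers. Such copies can share reads, so these counts of genes are not counts of separate observations. Mup11 averaged 50.5 ± 37.9 CPM in HFD-fed WT and 641.5 ± 194.6 CPM in chow-fed WT livers (n = 5 and 3). On HFD, 6 of 21 (10 without HFD-fed WT mouse 3) were higher in Bcl2TG than in WT livers (median 1.12), led by Mup12 at 65.7 ± 24.8 CPM in Bcl2TG and 13.9 ± 10.3 CPM in WT livers (n = 5 each, adjusted p = 0.0115, edgeR). Over all genes 2.42% were higher in that comparison. In Bcl2TG mice 0 of 21 were called by diet with edgeR (9 at an unadjusted p under 0.05; 0 in DESeq2 and 10 in limma-voom), with a median of -0.98. Over all genes 1.26% fell and 1.32% rose by diet in those mice. Between HFD-fed S100a8f/fCx3cr1Cre and S100a8f/f livers 0 of 19 were called (15 at an unadjusted p under 0.05; 0 in DESeq2 and limma-voom), with a median of 0.93, where 0.883% of all genes were called.

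Female-biased genes moved the opposite way. In HFD-fed WT livers 14 of 19 measured (of 33 listed) rose and 3 fell, where 8.4% of all genes rose, with a median of 2.20, and the 17 called were 11 without chow-fed WT mouse 1. The steroid and drug hydroxylase Cyp2b9 was at 261.0 to 334.3 CPM in HFD-fed WT and 0.240 to 1.36 CPM in chow-fed WT livers (log2 fold change 8.64, adjusted p = 1.42e-05, edgeR), while Cyp2b10 was among the 3 that fell. Among S100a8f/f mice 9 of 19 rose and 3 fell (14.5% of all genes rose), and in S100a8f/fCx3cr1Cre livers 10 rose and 2 fell (16.1% of all genes rose). In Bcl2TG livers 6 rose and 1 fell (1.32% of all genes rose; 4 called in all without chow-fed Bcl2TG mouse 2), with Cyp2b9 at 174.8 ± 54.7 CPM on HFD and 5.87 ± 6.63 CPM on chow (n = 5 and 3). On HFD, Bcl2TG livers differed from WT livers in 3 of the 19 (2 to 5 with 1 library left out, 5 without chow-fed WT mouse 2, HFD-fed Bcl2TG mouse 6 or HFD-fed WT mouse 1), with Rtn4 (-0.83) and Slc22a27 (-1.46) lower, where 4.29% of all genes were lower, and the prolactin receptor Prlr (0.70) higher.

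**Figure D5:**
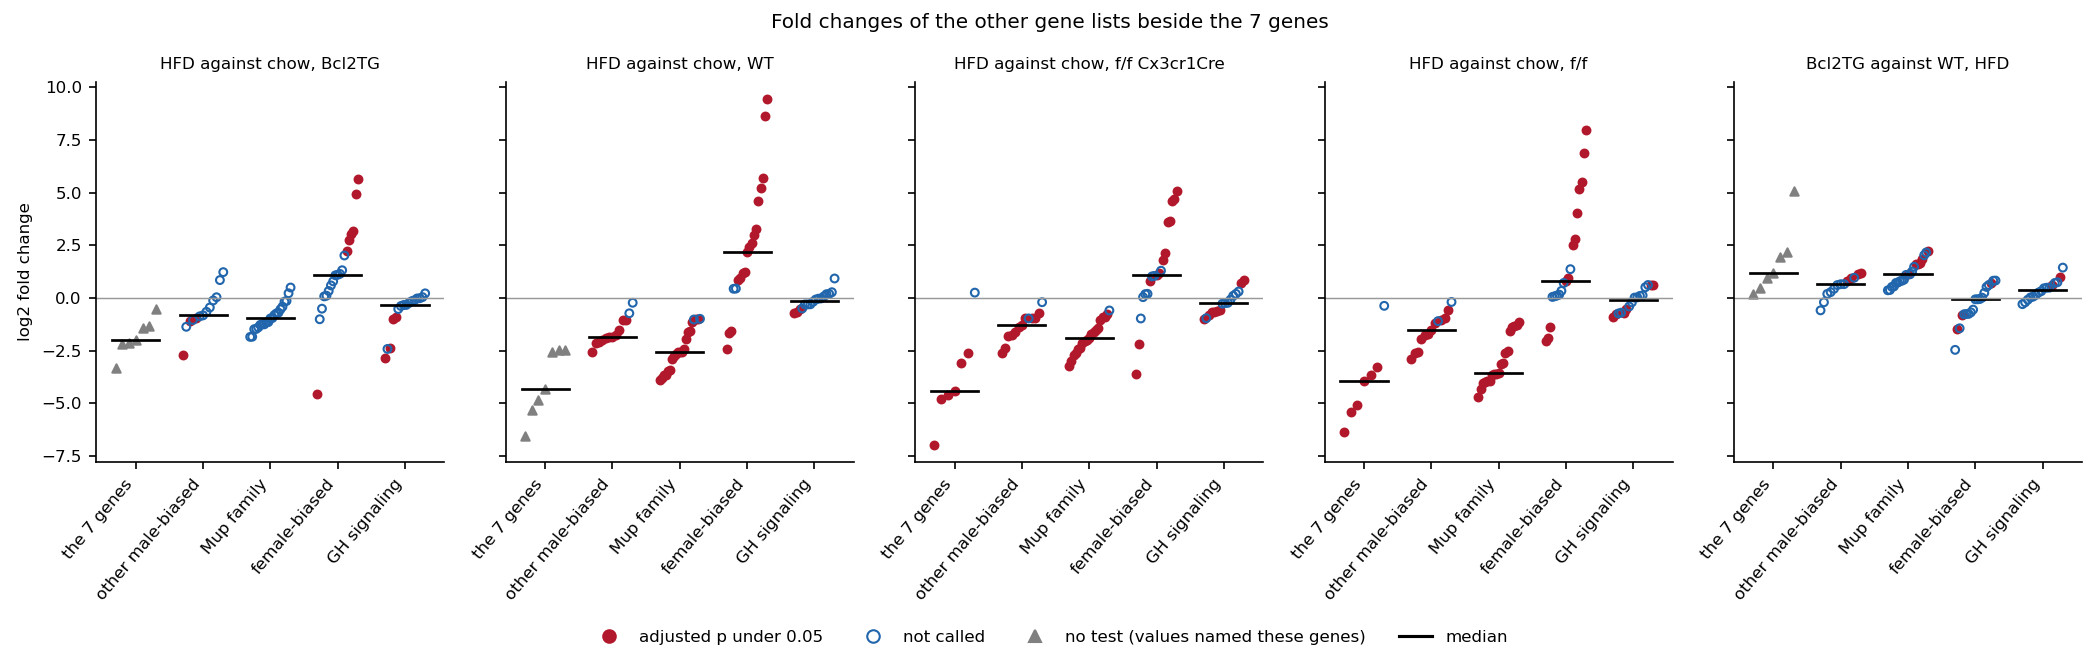
Log2 fold changes of the 7 genes and of 4 other lists in the 4 diet comparisons and in HFD-fed Bcl2TG against HFD-fed WT livers, each point 1 gene and each bar the median of its list; filled points passed an adjusted p of 0.05 and triangles were not tested. In WT and both S100a8 genotypes all other male-biased and Mup genes lie below 0 and most female-biased genes above 0 on HFD, and the median of the 7 genes is -4.35 in WT and -1.99 in Bcl2TG livers.

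Of 16 genes of growth hormone signaling, 3 to 8 were called by diet in each genotype. Over all genes 6.98% fell and 8.4% rose by diet in WT livers, and 1.26% fell and 1.32% rose in Bcl2TG livers. In S100a8f/f livers 13.0% of all genes fell and 14.5% rose, and in S100a8f/fCx3cr1Cre livers 12.8% fell and 16.1% rose. With 1 library left out the 3 in WT livers became 1 to 4 (1 without chow-fed mouse 2) and the 4 in Bcl2TG livers became 2 to 6 (2 without chow-fed mouse 1 or 2). In HFD-fed WT livers 3 fell and 0 rose, among them Igfals, which carries circulating IGF1 (-0.71), and the growth hormone target Igf1 (-0.52, adjusted p = 0.0165, edgeR). Igf1 and Igfals also fell in S100a8f/f (-0.78 and -0.89) and S100a8f/fCx3cr1Cre livers (-0.66 and -0.67), among 4 and 6 of the 16 that fell, while 2 rose in each. In Bcl2TG livers 4 fell and 0 rose on HFD, namely Onecut1 (-2.88), Socs2 (-2.40), Foxa2 (-0.99) and Foxa1 (-0.92). On HFD, Igfals and Igf1 were higher in Bcl2TG than in WT livers, where 2.42% of all genes were higher. Igfals differed by 0.99 (adjusted p = 0.0025, edgeR) and Igf1 by 0.60 (adjusted p = 0.0070, edgeR). No other gene of this list was called in that comparison. Transcripts of the receptor, Ghr, and of Stat5b were not called in any of the comparisons, with log2 differences between -0.31 and 0.32 for Ghr and between -0.11 and 0.12 for Stat5b.

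On chow, 3 of the 16 were higher in Bcl2TG than in WT livers, where 0.152% of all genes were called in either direction. That count was 1 without chow-fed mouse 1 or 2 of either genotype and 5 without HFD-fed Bcl2TG mouse 5. They were the hepatocyte transcription factors Foxa2 (1.44), Foxa1 (1.55) and Onecut1, or HNF6 (3.28, adjusted p = 0.0273, edgeR), the last at 48.4 to 49.0 CPM in chow-fed Bcl2TG and 3.29 to 6.96 CPM in chow-fed WT livers. Cish, a feedback inhibitor induced by growth hormone through STAT5, was at 41.2 to 62.2 CPM in chow-fed Bcl2TG livers, against 1.69 to 2.43 CPM in chow-fed WT livers (log2 difference 4.79, adjusted p = 0.0741, edgeR), and the related Socs2 at 51.0 to 87.9 CPM, against 4.41 to 13.9 CPM (2.86, adjusted p = 0.0617, edgeR). Neither was called, although the groups did not overlap. In the same chow-fed Bcl2TG livers Selenbp2, Serpina1e and Elovl3 were below WT, as given above, and Hsd3b5 and Slco1a1 overlapped with WT.

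Relatives of the 7 genes in sequence differed from them in the size of their response. All 4 close copies of Serpina1e fell on HFD in WT livers by edgeR, Serpina1d by 0.84 and Serpina1c by 1.49 on the log2 scale, where Serpina1e differed by -5.32. Serpina1b, at -0.44 (adjusted p = 0.0428), averaged 3350 ± 367.5 CPM on HFD and 4549 ± 691.4 CPM on chow (n = 5 and 3). Selenbp1, which is nearly identical to Selenbp2, was at 285.0 ± 34.8 CPM in HFD-fed and 337.0 ± 70.3 CPM in chow-fed WT livers (-0.24, adjusted p = 0.328, edgeR). Hsd3b3 and Hsd3b2 fell by 0.72 and 0.93. Other members of these families rose instead, with Cyp4a14 at 447.0 ± 195.4 CPM on HFD and 91.8 ± 48.8 CPM on chow (2.28, adjusted p = 0.0064, edgeR), Slco1a4 higher by 1.49, Elovl5 by 1.75, and Cyp4a10 also higher (adjusted p = 0.0112, edgeR). Among S100a8f/f mice Cyp4a14 and Cyp4a10 were not called (adjusted p = 0.280 and 0.0589, edgeR), Elovl5 rose by 2.57 and Elovl6 by 0.97.

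Among 12293 other genes compared, those whose levels over the livers were most like the mean of the 7, by the lower of the Pearson correlations in the 2 tables, were the complement gene C6 (0.97 in both), Cyp7b1 (0.96 and 0.97), the serpin Serpina3k (0.96 and 0.98), Mup14 (0.95 and 0.95), the complement gene C8b (0.94 and 0.97) and Mup11 (0.94 and 0.97), over 16 livers of the Bcl2TG and 18 of the S100a8 experiment. Group means were not removed here, so these correlations hold the diet difference, and genes with a strong diet response lie near the ends of this ranking. Serpina3k averaged 4295 CPM in HFD-fed Bcl2TG, 2121 CPM in HFD-fed WT, 6726 CPM in chow-fed Bcl2TG and 8491 CPM in chow-fed WT livers. The most opposite were the transporter genes Slc22a27 (-0.95 in both) and Slc22a29 (-0.95 and -0.94), the peroxisomal hydroxyacid oxidase Hao2 (-0.94 and -0.92), the lipoprotein receptor Vldlr (-0.94 and -0.92), Cyp2a22 (-0.96 and -0.92) and the peroxisomal transporter Abcd2 (-0.92 and -0.93). Slc22a27 averaged 10.0 CPM in HFD-fed Bcl2TG, 27.6 CPM in HFD-fed WT, 2.54 CPM in chow-fed Bcl2TG and 0.739 CPM in chow-fed WT livers.

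Markers of other liver cells moved with the diet and in part with the transgene. Summed stellate cell markers (6 of 6 measured) were at 91.4 to 163.3 CPM in HFD-fed Bcl2TG, 247.7 to 327.5 CPM in HFD-fed WT, 99.2 to 116.7 CPM in chow-fed Bcl2TG and 102.0 to 114.2 CPM in chow-fed WT livers, and summed macrophage markers (8 of 8) were at 150.5 to 369.2, 203.6 to 325.2, 77.2 to 118.9 and 127.8 to 139.2 CPM in the same 4 groups. Of the stellate markers, Col1a1 and Col3a1 averaged 9.08 and 31.35 CPM in HFD-fed Bcl2TG livers, against 54.7 and 114.5 CPM in HFD-fed WT livers. Between these HFD groups Col1a1, Col3a1 and Pdgfrb did not overlap, while Lrat, Reln and Des did. Summed hepatocyte markers were at 86950 to 126500 CPM in HFD-fed WT and 111500 to 143000 CPM in chow-fed WT livers, and at 94960 to 106500 CPM in HFD-fed and 100100 to 118200 CPM in chow-fed S100a8f/f livers. Of the 9 hepatocyte markers 4 fell on HFD in WT livers, namely Tat (-1.26), Cps1 (-1.22), Fgb (-0.73) and Ahsg (-0.51). In S100a8f/f livers 2 fell, Fgb (-0.70) and Ahsg (-0.57, adjusted p = 0.00588, edgeR). Over all genes 6.98% fell in WT and 13.0% in S100a8f/f livers. The part of hepatocytes and of the other cell types in the values of the 7 genes was not tested.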

How the data were processed

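Livers of male mice were profiled by polyA RNA-seq. The deposited tables hold raw counts per gene, made by the authors with FastQC, Trimmomatic, HISAT2, SAMtools and featureCounts on GRCm38 (versions not given in the sources used here), beside columns of the authors' DESeq2 comparisons (means, fold changes, test statistics and p-values), which were not used. Genes with a mean under 7.12 or 8.67 counts are not in the tables. Repeated rows were kept once (14436 of 14628 rows and 13817 of 14030 rows).

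Each table was fitted on its own with edgeR 4.0.16 (TMM scaling, filterByExpr, 4 group means, quasi-likelihood test) in R 4.3.3, with Benjamini-Hochberg adjustment over all its genes and calls at an adjusted p under 0.05. Log2 CPM used a prior count of 2. The script was tested on simulated data. Tables were made with pandas 2.3.3 and NumPy 2.4.6 in Python 3.11.15, and figures with matplotlib 3.10.9. The 7 genes and all lists were chosen with earlier results of these data known. Named genes are the 7, up to 4 per list with the smallest p in the comparison described, paralogs compared with a member, the 6 genes most like and the 6 most opposite, and a few chosen after their values were seen (Cish, Socs2, Ghr, Stat5b, Onecut1, Foxa1, Foxa2, Bmal1, Per3, Cyp2b10). Alternatives were DESeq2 1.42.0, limma-voom with quality weights (limma 3.58.1), RLE factors, no or a stricter filter, only the groups compared, a replicate block and each library left out. P-values measure the spread between these libraries, whose numbers do not pair them. No pair of libraries of a group agreed within sampling noise (chi-square per degree of freedom of 12.3 or more). Of the growth hormone signaling list, some results by gene are not reported here. Library totals ran from 18628257 to 52395073 counts.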

Additional observations from a re-analysis of the deposited data

Results flagged for a closer look

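Hsd3b5 in HFD-fed WT mouse 1, at 10.15 CPM, lay far from the other 4 livers of its group (0.144 to 2.26 CPM); the same library had 21.3 CPM of Bcl2, against 2.72 to 2.94 CPM in the others. Cyp4a12a in HFD-fed S100a8f/fCx3cr1Cre mouse 5, at 88.92 CPM, lay far from the other 3 (17.3 to 24.0 CPM). These were 2 of 42 combinations of gene and group checked, and chance alone marks about 1 in 20 groups.

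The diet effect differed between Bcl2TG and WT mice, by the test of the difference itself, for the oxysterol hydroxylase Cyp7b1 (1.92 on the log2 scale, SE 0.40; adjusted p = 0.0447, edgeR), the clock-linked repressor Nfil3 (1.17, SE 0.25; adjusted p = 0.0479) and Serpina1d, a close copy of Serpina1e (0.86, SE 0.18; adjusted p = 0.0474). They were the only genes called in the lists searched, which held 13 other male-biased, 21 Mup and 19 female-biased genes. The lists also held 16 growth hormone signaling genes, 19 relatives of the 7 and 18 clock genes. Over all 14436 genes 70 were called for this difference, and the lists were chosen with earlier results known. With 1 library left out, the calls of this difference numbered 0 to 4 among other male-biased genes, 0 to 1 among clock genes and 0 to 2 among relatives of the 7, and were 0 in each list without any 1 of the 6 chow-fed livers. Cyp7b1 averaged 131.1 CPM in HFD-fed Bcl2TG, 59.5 CPM in HFD-fed WT, 207.0 CPM in chow-fed Bcl2TG and 356.8 CPM in chow-fed WT livers. Serpina1d averaged 2135, 1212, 2100 and 2163 CPM in the same groups.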

How the results depend on the processing

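The falls of 6 of the 7 genes on HFD kept their direction and call under every alternative run in both S100a8 genotypes. Among HFD-fed livers, the count of other male-biased genes called between Bcl2TG and WT was 4, and 7 with DESeq2, 2 with the replicate block and 3 to 6 with 1 library left out. On chow it was 0, and 1 with DESeq2, 2 with limma-voom, 1 with only the groups compared and 0 to 1 with 1 library left out. By diet in Bcl2TG mice it was 3, and 8 with DESeq2, 9 with limma-voom, 5 with only the groups compared and 0 to 5 with 1 library left out. For the difference between diet effects it was 1, and 4 with DESeq2, 4 with limma-voom, 0 with the replicate block and 0 to 4 with 1 library left out. Mup genes called between HFD-fed Bcl2TG and WT livers numbered 6, and 10 with limma-voom and 1 with the block. Growth hormone signaling genes called there numbered 2, and 4 with DESeq2 or 5 with limma-voom. Over all genes the calls there were 968, with DESeq2 1488, with limma-voom 1560 and 398 in the blocked fit, and by diet in Bcl2TG mice 373, with limma-voom 2006. Same-numbered libraries did not deviate together (median r 0.05 over 19 pairs and -0.05 over 24), so the block is no pairing.

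Between HFD-fed S100a8f/fCx3cr1Cre and S100a8f/f livers the members called numbered 0, and 0 to 1 with 1 library left out. Directions turned for Cyp4a12a (-0.0525 in limma-voom, -0.45 to 0.63 with 1 library left out), Cyp4a12b (-0.0352 to 0.56) and Serpina1e (-0.0564 in limma-voom, -0.50 to 0.82). On chow they turned for Selenbp2 (-0.11 to 0.51) and Serpina1e (-0.0569 in limma-voom, -0.0677 to 0.14), and for the difference between diet effects for Cyp4a12a (-0.17 to 0.91) and Serpina1e (-0.54 to 0.77). None of these was called. The filter removed no gene, so no filter gave the same values. Causes were not tested.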
